A study of Mus musculus with 12 samples.

Results

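The insulin-like growth factor (IGF) group described here holds 8 genes: the binding proteins Igfbp2, Igfbp3, Igfbp4, Igfbp5, Igfbp6 and Igfbp7, the ligand Igf1 and the receptor Igf1r. They were taken by name, as every gene probe on the array that carries one of these 8 symbols, which gave 13 of 55681 gene probes and 8 of 28139 named genes. The symbols had been picked with earlier results of this age comparison known. The members' differences between the ages, with their p-values, intervals and calls, are therefore a description and not an independent test. RNA came from the descending aorta of male C57BL/6 mice, bought from Janvier, that received standard chow and water without restriction at both ages. There were 6 mice aged 6 months and 6 mice aged 20 months, with 1 Agilent 1-colour array per mouse. No mouse carried a transgene or received a drug, as far as the labels say. The vessel had been flushed through the heart and stripped of surrounding fat and connective tissue before freezing. The RNA is therefore that of a whole vessel segment and of any fat left on it. Fewer cells of a type and less RNA per cell cannot be told apart.

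IGF1 is a secreted growth factor that is made under growth hormone control in the liver and also locally in many tissues, the vessel wall among them. It binds the receptor tyrosine kinase IGF1R, which signals through insulin receptor substrates to PI3K, AKT and TOR and keeps FOXO transcription factors out of the nucleus. In blood and tissue most IGF is held by high-affinity binding proteins, which prolong its life, limit or direct its access to the receptor, and are cut by proteases that set it free. In the arterial wall the pathway is known for its part in the growth and survival of smooth muscle cells.

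Of the 8 genes, Igfbp2 and Igfbp4 rose with age, Igfbp2 by 3.74-fold and Igfbp4 by 1.34-fold. In both, all 6 mice aged 20 months lay above all 6 mice aged 6 months. The other 6 genes did not pass the threshold, an adjusted p (Benjamini-Hochberg over all genes) under 0.05 in limma's moderated linear model. In that model the adjusted p was 0.0297 for Igfbp2 and 0.0359 for Igfbp4. The array-wide background was 0.314% of 16853 genes past the same threshold, 0.261% higher and 0.0534% lower. Ages that did not overlap were found in 0.813% of genes, 0.617% with the old mice higher and 0.196% with them lower. Counted by probe, 3 of the 13 were past the threshold, beside 0.257% of 27583 probes, and 0.769% of probes had ages that did not overlap. Since the members were chosen from this comparison, nothing is read from their 2 calls against these shares. Over the 8 genes the median change was 0.10 on the log2 scale, beside -0.02 over all genes tested, with 5 changes above 0 and 3 below.

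The sequences below belong to the pair of genes that rose. The array carries 2 probes for Igfbp2, and the brighter one, shown first, reads the end of the protein-coding sequence on the plus strand of mm9 at chr1:72898677-72898736. Capitals mark the TAA stop codon that closes the probe's 19 open codons.
Igfbp2 probe: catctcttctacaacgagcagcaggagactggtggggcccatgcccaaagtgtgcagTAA
RefSeq gives 2 starts for Igfbp2. The 250 bases before the upstream start lie on the plus strand of GRCm38.p6 at chr1:72824230-72824479 and are shown for their motif matches; the window of the other start, at chr1:72825137-72825386, had no match to the motifs searched. Capitals mark its 3 matches to the GC box GGGCGG, the element that SP1 family factors bind.
Igfbp2 promoter: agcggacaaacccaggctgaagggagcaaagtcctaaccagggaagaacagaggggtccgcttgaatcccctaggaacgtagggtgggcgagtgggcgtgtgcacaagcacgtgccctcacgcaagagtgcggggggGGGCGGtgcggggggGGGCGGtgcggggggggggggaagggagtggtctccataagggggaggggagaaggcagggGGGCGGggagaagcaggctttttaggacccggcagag
The RefSeq window of 250 bases before Igfbp4 lies on the plus strand of GRCm38.p6 at chr11:99040994-99041243, and capitals mark a TATAAA match.
Igfbp4 promoter: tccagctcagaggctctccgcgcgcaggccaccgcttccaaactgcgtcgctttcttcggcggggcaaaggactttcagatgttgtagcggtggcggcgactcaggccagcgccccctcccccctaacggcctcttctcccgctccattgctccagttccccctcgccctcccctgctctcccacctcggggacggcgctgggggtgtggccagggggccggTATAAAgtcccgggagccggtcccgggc
The share of G and C was 67.2% in the window shown for Igfbp2, 56.4% at its other start and 69.2% for Igfbp4, beside a median of 52.4% over 32851 windows of equal length. Searched on either strand, GGGCGG occurred in 32.7% of those windows and TATAAA in 12.4%. Neither Igfbp2 window held TATAAA, and the Igfbp4 window held no GGGCGG. Among the remaining members, the window of Igfbp7 held 4 matches to GGGCGG, that of Igf1r 2, and that of Igfbp6 held 1 match to TATAAA. The FOXO element GTAAACA was in no window of the 8 genes, and was in 3.17% of all windows. A match is only a run of letters here and no site of binding was measured.

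All values that follow are log2 signals relative to the array's 75th percentile over gene probes, so 1 unit is a doubling, and a signal is never set against that of another probe. Every one of the 13 probes stood well above background on 12 of 12 arrays, and none was saturated. Between 48.8% and 56.8% of gene spots on an array were well above background. Each of 3 slides held 2 arrays per age. Column 3 of the slides held the whole 20-month group and no young mouse, so age and slide column cannot be told apart. Heart muscle markers averaged 4.23 in 20 months replicate 1 and 2.87 in 6 months replicate 1. They reached at most 0.57 in the other old mice and 0.86 in the other young mice. Markers of T and NK cells averaged 1.74 in 6 months replicate 4. Smooth muscle markers, which define the labelled tissue, averaged 7.32 at both ages, and none of their 7 genes passed the threshold. White adipocyte markers averaged 6.04 at 6 months and 5.92 at 20 months, and brown adipocyte markers 4.39 and 3.91. RNA of fat cells was therefore read at both ages, although the vessel had been stripped of fat.

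**Figure D1:**
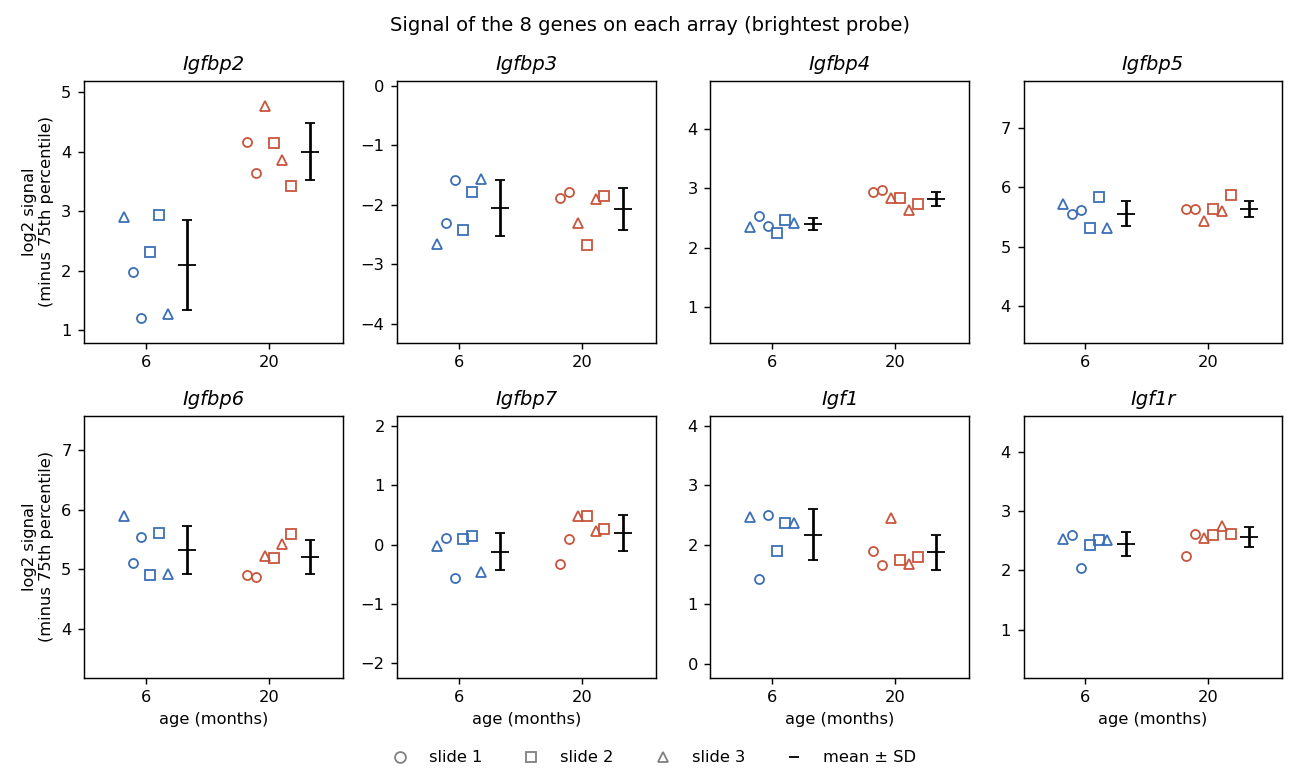
Log2 signal (vertical axis, relative to the array's 75th percentile) of the brightest probe of each of the 8 genes at 6 and 20 months; each point is 1 mouse and the bars give the mean and SD over 6 mice. The ages are apart for Igfbp2 and Igfbp4 and overlap for the other 6 genes.

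Igf1, the ligand, gave lower values on average at 20 months, without passing the threshold. Its brightest probe, at mm9 chr10:87393581-87393640, ran from 1.42 through a median of 2.36 to 2.50 at 6 months. At 20 months the same probe ran from 1.66 through 1.77 to 2.44. The ages overlapped because 6 months replicate 2 was low and 20 months replicate 3 was high. The mean was 2.17 ± 0.42 at 6 months and 1.87 ± 0.29 at 20 months (SD, n = 6 each), a change of -0.30 ± 0.19 (SE) with a 95% interval from -0.71 to 0.11. At this probe the change was below 0 on each slide, at -0.19, -0.36 and -0.35. With any 1 array left out the change lay between -0.45 and -0.23, and it never passed. The largest fall, -0.45, came without 6 months replicate 2.

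The 5 Igf1 probes spread over the gene and gave changes from -0.37 to -0.06, each with a 95% interval that included 0. Differences in change between the probes were not tested. Probe 2, which shares 40 bases with the brightest probe, ran from 1.34 through 2.22 to 2.34 at 6 months and from 1.41 through 1.53 to 2.27 at 20 months. It gave -0.37 ± 0.20 (SE), and the probe at chr10:87399581-87399640 gave -0.14 ± 0.16. The probe at chr10:87395924-87395983 gave -0.15 ± 0.09. The remaining probe, at chr10:87378456-87378515 and assigned by the array's annotation to transcript variant 2, gave -0.06 ± 0.09. It was the steadiest of the 5: its 12 arrays spanned 0.436, against 1.08 for the brightest probe, 0.806 for the fourth and 0.494 for the fifth. On slide 1 the change was 0.026 at the variant 2 probe and 0.008 at the fourth probe. Every other change on a single slide was below 0. Probes 1 and 2 followed each other closely within an age (r = 0.989 over 12 arrays), and the variant 2 probe followed the brightest less closely (r = 0.743). These probes share their RNA and are not replicates.

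**Figure D2:**
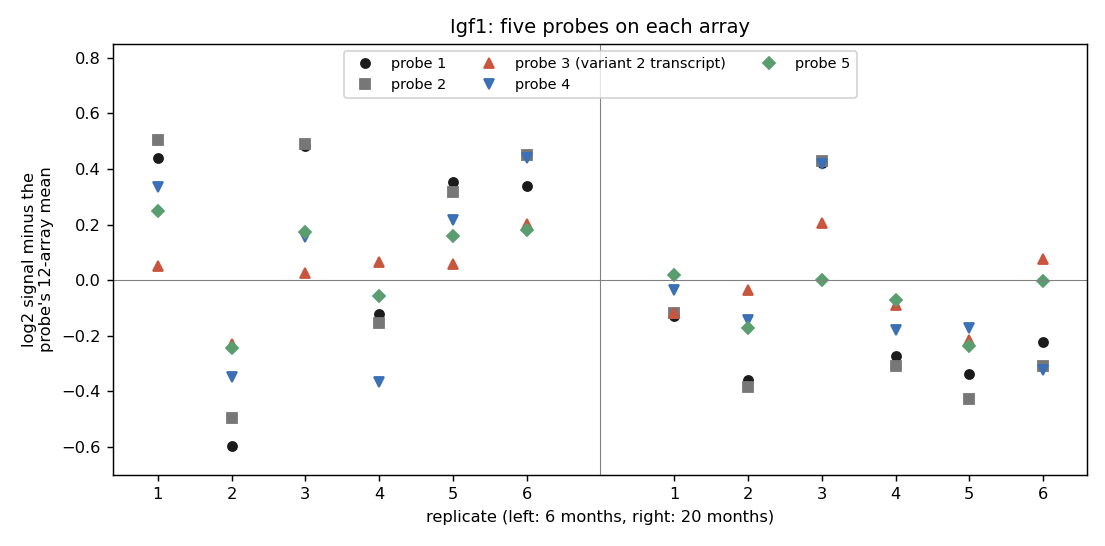
Log2 signal of the 5 Igf1 probes minus each probe's own mean over 12 arrays (vertical axis), for replicates 1 to 6 at 6 months (left) and 20 months (right). In 6 months replicate 2 all 5 probes lie below their mean, and the variant 2 probe (triangles) moves least.

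Igf1r, which encodes the receptor that carries the IGF signal into the cell, changed little. At 6 months its probe (chr7:75378461-75378520) ran from 2.05 through 2.52 to 2.59, and at 20 months from 2.25 through 2.60 to 2.75. The lowest value, 2.05, was a single array, 6 months replicate 3, and the remaining mice of both ages lay between 2.25 and 2.75. The change was 0.12 ± 0.11 (SE), with a 95% interval from -0.11 to 0.35, and came to 0.11, 0.13 and 0.12 on the 3 slides.

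Igfbp2 encodes a secreted binding protein with an integrin-binding motif and is a long-known circulating IGF carrier. At 6 months its brighter probe ran from 1.21 through a median of 2.14 to 2.94. At 20 months it ran from 3.42 through 4.0 to 4.77. The highest young mice, replicates 5 and 1 at 2.94 and 2.89, stayed below the lowest old mouse, replicate 6 at 3.42. The mean rose from 2.1 ± 0.76 to 4.0 ± 0.48 (SD, n = 6 each), a change of 1.90 ± 0.32 (SE) with a 95% interval from 1.20 to 2.60. The spread among young mice was wide, from 1.21 in replicate 3 to 2.94 in replicate 5. The second Igfbp2 probe, 76 bases further along, gave 1.87 ± 0.33, or 3.65-fold, and followed the brighter one within an age (r = 0.994). The rise was 2.32, 1.16 and 2.23 on the 3 slides. Of the 12 fits that each left out 1 array, 4 kept the call, with a change between 1.73 and 2.07 over the 12. The call was lost without 6 months replicates 2, 3 or 4 and without 20 months replicates 1, 2, 3, 4 or 5.

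Igfbp4 encodes the binding protein that the protease PAPP-A cuts to release IGF. At 6 months it ran from 2.25 through 2.39 to 2.54 (chr11:98913334-98913393). At 20 months it ran from 2.64 through 2.84 to 2.97. The highest young mouse, replicate 2 at 2.54, stayed below the lowest old mouse, replicate 5 at 2.64. The mean rose from 2.40 ± 0.10 to 2.83 ± 0.12 (SD, n = 6 each), a change of 0.43 ± 0.08 (SE) with a 95% interval from 0.26 to 0.59. It was a smaller step than for Igfbp2 but with a much tighter spread, and came to 0.49, 0.42 and 0.36 on the 3 slides. The call was kept in 2 of the 12 fits that left out 1 array, those without 6 months replicate 2 and without 20 months replicate 5. Across the 12 fits the change stayed between 0.40 and 0.46. By p the gene stood at rank 38 of all genes tested, by size of change at rank 718.

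**Figure D3:**
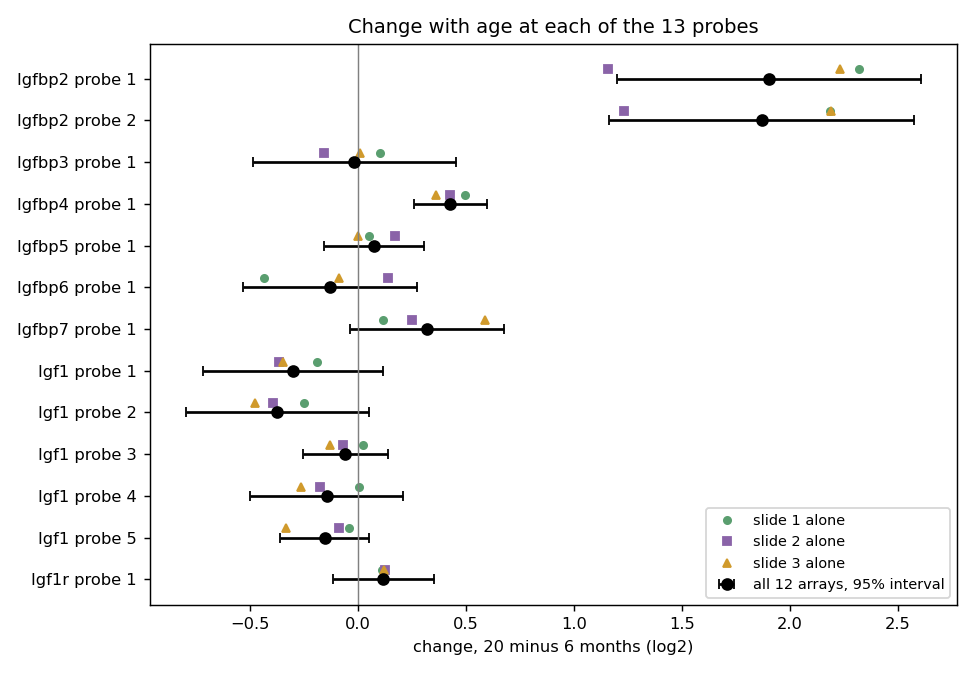
Change from 6 to 20 months (log2, horizontal axis) of each of the 13 probes, with 95% intervals from limma. Both Igfbp2 probes and the Igfbp4 probe lie clear of 0, and the intervals of the other 10 probes cross it. Small symbols give each slide alone.

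Igfbp7 encodes a low-affinity IGF-binding protein that is laid down in vessel walls. Its probe (chr5:77778271-77778330) ran from -0.56 through 0.04 to 0.15 at 6 months and from -0.33 through 0.24 to 0.49 at 20 months. The ranges overlapped, with 4 of the old mice above every young mouse. The change was 0.32 ± 0.16 (SE), with a 95% interval from -0.04 to 0.67, and did not pass the threshold. It was above 0 on each slide, at 0.12, 0.25 and 0.59. With any 1 array left out it lay between 0.229 and 0.425, and without the 3 arrays high in heart muscle or T and NK markers it was 0.50. It passed in 0 of 28 alternatives.

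Igfbp3, Igfbp5 and Igfbp6 did not pass the threshold, and the ranges of the ages overlapped almost fully. Igfbp3, the main carrier of IGF in blood, ran from -2.67 through -2.04 to -1.56 at 6 months and from -2.67 through -1.89 to -1.79 at 20 months, with a change of -0.02 ± 0.22 (SE, 95% interval -0.48 to 0.45). Igfbp5, a binding protein that also attaches to the extracellular matrix, ran from 5.31 to 5.84 and from 5.43 to 5.86, with a change of 0.08 ± 0.10 (-0.15 to 0.30). Igfbp6, which prefers IGF2 over IGF1, ran from 4.90 to 5.89 and from 4.86 to 5.59, with a change of -0.13 ± 0.19 (-0.53 to 0.27). A p that misses the threshold does not show that these genes stayed the same, and the intervals are widest for Igfbp3 and Igfbp6. On the 3 slides the changes of Igfbp6 were -0.43, 0.14 and -0.09 and those of Igfbp3 were 0.10, -0.16 and 0.01, so neither kept 1 direction. Igfbp2 and Igfbp5 are neighbours on chromosome 1, so the gene that rose and one that did not sit side by side.

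Other genes of the pathway were described from a list of 55, of which 51 were measured. None of the 51 passed the threshold in limma, and 3 had an unadjusted p under 0.05, beside 7.99% of all genes. Their median change was -0.05, and 23 changes were above 0 and 28 below. Igfbpl1 and Foxo3 were well above background on 1 array and Igfbp1 and Stc1 on none, so they were not tested. Among the ligands and further binding proteins (4 of 6 tested), Esm1, a secreted endothelial proteoglycan, differed by 0.63 ± 0.29 (SE; adjusted p = 0.605 in limma). Igfals, the acid-labile subunit that stabilises IGF complexes in blood, differed by -0.62 ± 0.30.

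The proteases that cut binding proteins, with their inhibitors, had the highest median of the 5 groups, 0.22, with 4 of 5 genes above 0. Pappa, which cuts IGFBP4, ran from -2.60 through -2.41 to -2.16 at 6 months and from -2.35 through -2.11 to -1.73 at 20 months, a difference of 0.26 ± 0.11 (SE). Its relative Pappa2 differed by 0.40 ± 0.19. Neither passed the threshold, at adjusted p = 0.588 and 0.64 in limma. Of the 11 receptors and adaptors, with a median of 0.01, the insulin receptor Insr had the smallest p of all 51, with a change of -0.20 ± 0.08 (SE) and an adjusted p of 0.502 in limma. The adaptor Grb14 differed by -0.23 ± 0.11. Among the 23 PI3K, AKT, FOXO and TOR genes (median -0.07), the transcription factor Foxo4 differed by -0.54 ± 0.25 at a signal above background on 6 arrays, and the kinase subunit Pik3cd by 0.23 ± 0.11. Growth hormone axis genes had the lowest group median, -0.21 over 8 genes, with 6 below 0; the signal transducer Stat5a differed by -0.33 ± 0.18 and the kinase Jak2 by -0.14 ± 0.08.

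**Figure D4:**
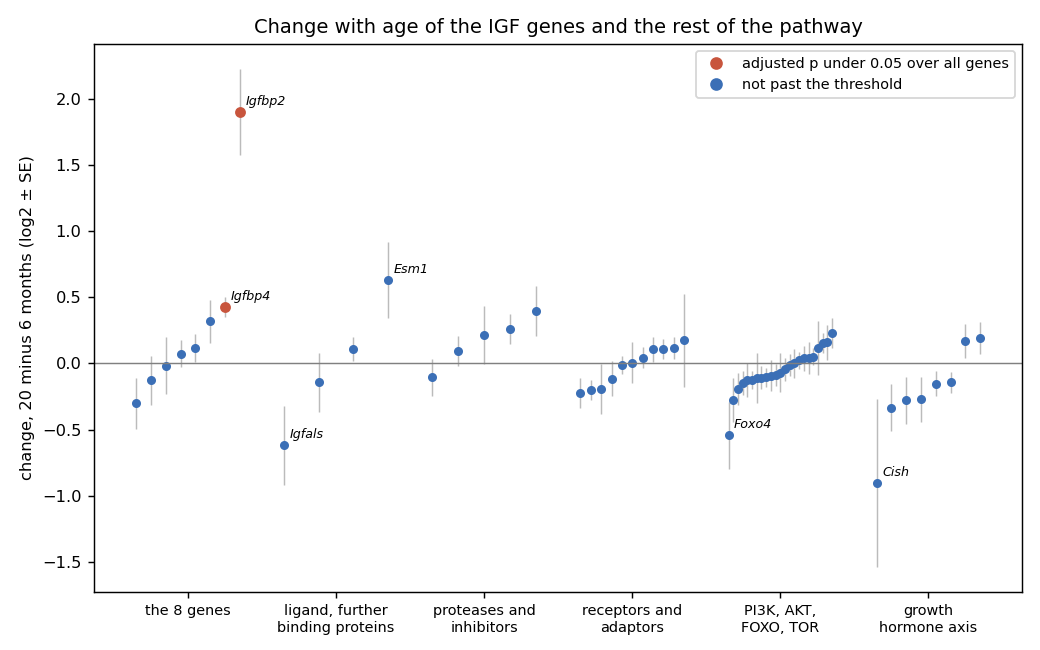
Change from 6 to 20 months (log2 ± SE), 1 point per gene. The first column holds the 8 genes, and 5 further columns hold 51 other IGF pathway genes. Red points, Igfbp2 and Igfbp4, passed the threshold. None of the 51 other genes passed it. Their group medians range from -0.21 for the growth hormone axis to 0.22 for the proteases and inhibitors.

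Means of marker lists of other cell types differed between the ages beside these genes, with overlapping ranges in each list. All 9 macrophage markers gave higher means at 20 months, with a median change of 0.33 and 1 gene past the threshold, and their mean per array ran from 0.46 to 1.1 in young and from 1.04 to 1.38 in old mice. The 5 measured mesothelial markers, of 6 listed, all gave lower means, with a median of -1.90, and none of the 5 passed the threshold. The list mean ran from -2.65 to -0.02 in young and from -4.40 to -1.63 in old mice. Some of these signals were low in old mice, with 20-month medians of -5.01 for Upk3b and -5.15 for Wt1. A gene could enter with at least 6 arrays above background, so the size of this drop may rest on signals near background. All 7 brown adipocyte markers gave lower means (median -0.39), and none passed. The part of these cell types in the changes of Igfbp2 and Igfbp4 was not tested. Without the 3 arrays high in heart muscle or T and NK markers, Igfbp2 changed by 2.12 and Igfbp4 by 0.36, and neither passed the threshold. Within an age, which the choice of members did not use, each of the 8 genes was set against 8 marker lists over 12 arrays, giving 64 relations. None passed after Benjamini-Hochberg adjustment, 11 had an unadjusted permutation p under 0.05, and the smallest adjusted value was 0.132.

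Among the relations with the smallest p, Igf1 went with macrophage markers (Pearson r = 0.772, Spearman rho = 0.881, two-sided permutation p = 0.00783, adjusted 0.132). Without the 2 arrays farthest from the list's median r was 0.627, and from deviations within age and slide it was 0.865. Igf1 also went with white adipocyte markers (r = 0.752, rho = 0.685, permutation p = 0.00341, adjusted 0.132), with r = 0.852 without 2 arrays and 0.809 within age and slide. Igfbp7 went with smooth muscle markers (r = 0.845, rho = 0.58, permutation p = 0.00975, adjusted 0.132), with r = 0.68 without 2 arrays and 0.845 within age and slide. Igf1r went against Schwann cell markers (r = -0.815, rho = -0.65, permutation p = 0.00817, adjusted 0.132), with r = -0.696 without 2 arrays and -0.794 within age and slide. With other processing or any 1 array left out this r lay between -0.873 and -0.549. The array 6 months replicate 3 held both the highest Schwann mean, 1.41, and the lowest Igf1r value, 2.05. The 2 arrays of an age and slide deviate by equal and opposite amounts, so these r rest on fewer values than 12. Permutation within age and slide gave p = 0.0306 for Igf1 with macrophage markers and for Igf1r with Schwann markers. It gave 0.25 for Igf1 with white adipocyte markers and 0.156 for Igfbp7 with smooth muscle markers. This shuffle can only exchange the 2 arrays of an age and slide, so few arrangements exist and 0.0306 is about the smallest p possible. A relation could hardly pass after adjustment there, and the smallest adjusted value, 0.392, decides nothing. For Igfbp2 the relation to smooth muscle markers (r = 0.597, rho = 0.559, permutation p = 0.0921, adjusted 0.347) varied with the arrays and scaling used. Without the 2 arrays farthest from the list's median r was -0.107, while with any 1 array left out it lay between 0.457 and 0.717. Under quantile normalization it was 0.538, and 0.575 without 2 arrays. Within age and slide it was 0.61 (permutation p = 0.405), and -0.473 without 2 arrays. Igfbp4 ran against mesothelial markers (r = -0.612, rho = -0.706, permutation p = 0.0522, adjusted 0.266), with r = -0.56 without 2 arrays. Within age and slide its r was -0.526 (permutation p = 0.438). The mesothelial list holds the low signals in old mice given above, which limits this relation.

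**Figure D5:**
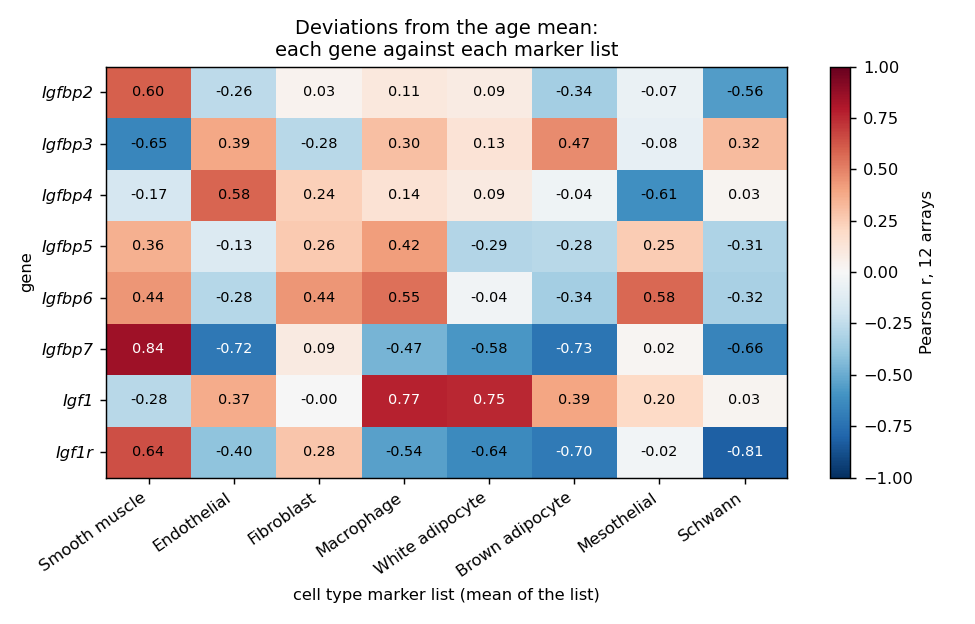
Pearson r between each of the 8 genes (rows) and the mean of each of 8 marker lists (columns), from deviations within an age over 12 arrays; the colour scale runs from negative to positive r. None of the 64 relations passed after adjustment; the Igf1 row is positive for macrophage and white adipocyte markers.

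Genes most like each member over the 12 arrays, by Pearson r of deviations from the age mean, are given as a description. They were picked as the highest r among the named genes tested, so picking alone gives high values. How high the top r runs for unrelated genes was not tested. Igf1 was followed by the iron carrier Trf (0.962), the adipocyte hormone Retn (0.956) and the mitochondrial carbonic anhydrase Car5b (0.945). Igf1r was followed by Akap11 (0.951), the carnitine palmitoyltransferase Cpt1a (0.943) and Ngef (0.925). Igfbp2 was followed by Asphd2 (0.87), Ifi27l2b (0.867) and Serpina1d (0.849), at lower r than the nearest genes of Igf1. Igfbp4 was followed by the transcription factor subunit Gtf2h2 (0.87), Tm9sf4 (0.866) and Lrrc39 (0.862). Igfbp5 was followed by cytoglobin, Cygb (0.937), the transcription factor Maf (0.932) and Fmnl2 (0.875). Igfbp6 was followed by the secreted Wnt antagonist Sfrp4 (0.926), the metalloproteinase inhibitor Timp1 (0.863) and podoplanin, Pdpn (0.862). Igfbp7 was followed by Plekho2 (0.954), Atp8b1 (0.945) and Tes (0.939), and Igfbp3 by Tnfrsf13b (0.899), the histone gene H4c8 (0.84) and Anks3 (0.805). None of these genes passed the threshold between the ages.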

How the data were processed

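The deposited scanner files hold an intensity per spot, the processed green signal. Per the file headers, the scans of the 12 arrays were quantified with the software Agilent Feature Extraction 10.7.1.1 (protocol GE1_107_Sep09, design 028005, probe positions in mm9). The deposited value table holds log2 values whose processing is not given in the sources used here. Each probe's median in it is 0, and its columns track the scanner values per array with r from 0.921 to 0.991. It served as an alternative. Its fit was nearly that of quantile normalization, another alternative. Both gave 1.926 for Igfbp2, 0.441 for Igfbp4 and 50 genes past the threshold. The 2 are counted apart among the alternatives.

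Signals were taken to log2, outlier spots left out, a probe's spots averaged and each array's 75th percentile subtracted. Of 55681 gene probes, 55630 were complete. Probes well above background on at least 6 arrays (27583) were kept, and the brightest probe stood for a gene, giving 16853 genes. Probes were named through RefSeq by accession (26413), by symbol (4594) or by the array (4779). The ages were compared with limma 3.58.1 in R 4.3.3 (data.table version 1.17.8), adjusted over all genes tested. Figures used Python 3.11.15 and matplotlib 3.10.9. The named genes are all 8 members, the 2 pathway genes of each group with the smallest p and the 3 genes most like each member. Promoters of all 8 members were matched by symbol. Members and lists were chosen with earlier results of these data known. Replicates were separate mice. Alternatives were another background correction, scaling and filter, slide blocks, each slide alone, a replicate block, eBayes settings, other probe rules and each array left out. The number of arrays, 6 at each age, sets the precision.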

Additional observations from a re-analysis of the deposited data

Results flagged for a closer look

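Of 66 groups of 6 values, 8 had a highest or lowest array far from the rest, measured as its gap to the nearest other array over the group's range; chance gives such a gap in about 1 in 20 groups. In 20 months replicate 3, the brightest Igf1 probe was high at 2.44 (next 1.89), and the second Igf1 probe was high at 2.27 (next 1.72). These overlap in sequence and read the same array. The Igf1r probe was low at 2.05 in 6 months replicate 3 (next 2.43). In 20 months replicate 1, the smooth muscle list mean was low at 7.04, the fibroblast list mean low at 4.96, the brown adipocyte list mean high at 4.64 and the heart muscle list mean high at 4.23. The T and NK cell list mean was high at 1.74 in 6 months replicate 4.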

How the results depend on the processing

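Over 28 alternatives, 2 of the 8 members passed the limma threshold in 9 and fewer in 19, and no change of Igfbp2, Igfbp4, Igfbp7, Igf1 or Igf1r turned its sign. Igfbp6 lay above 0 in 1 alternative and Igfbp3 in 10, and Igfbp5 was 0 on slide 3 alone. Scaling to the array median left 1 member past it. No filter on dim probes, each slide alone, the replicate block and leaving out the 3 arrays high in heart muscle or T and NK markers left 0 each. Leaving out each array in turn left 0 to 1. Calls over all genes numbered 53 in the reported fit, 33 with median scaling, 23 without a filter, 1, 1 and 0 on slides 1, 2 and 3, 6 under the replicate block, 30 without the 3 arrays and 21 to 59 with 1 array left out. An unadjusted p under 0.05 was held by 2 or 3 members in each of these fits. Under the replicate block, the change of Igfbp2 stayed at 1.90 but its adjusted p was 0.109, and for Igfbp4 0.205. The replicate numbers gave no pairing: same-numbered arrays correlated above 0.1 in 2 of 6 pairs. Igfbp2 kept its call in 14 of 28 alternatives and Igfbp4 in 11. Of the pathway genes, 0 passed in any alternative, with 1 to 9 at an unadjusted p under 0.05. No relation to a marker list passed in any of 15 alternatives, among them the shuffle within age and slide, which could hardly give a pass. Scaling to the median moved the median of all genes by 0.0334. Each slide alone and each array left out use fewer arrays; the cause of the other lost calls was not tested. Probes near background, such as Foxo4, limit their own precision.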

Other observations

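Pairs of the 8 members were also compared within an age over 12 arrays, 28 pairs in all. None passed after Benjamini-Hochberg adjustment, and 3 had an unadjusted permutation p under 0.05. Igfbp5 went with Igfbp6 (Pearson r = 0.727, Spearman rho = 0.741, permutation p = 0.0208, adjusted 0.3), with r = 0.486 without 2 arrays. Igfbp7 went with Igf1r (r = 0.673, rho = 0.203, permutation p = 0.0299, adjusted 0.3), and against Igfbp3 (r = -0.669, rho = -0.615, permutation p = 0.0321, adjusted 0.3). Without 2 arrays these were 0.64 and -0.69. The members that rose, Igfbp2 and Igfbp4, gave r = 0.077 within an age (rho = 0.084, permutation p = 0.813, adjusted 0.876).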
